A study of Mus musculus with 16 samples.

Results

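This account concerns the effect of TAC (transverse aortic constriction, the surgical narrowing of the aorta that loads the left ventricle with pressure) in mouse hearts that received NR, in this field the abbreviation for nicotinamide riboside, a vitamin B3 form that cells convert to NAD+. Total RNA of heart tissue had been sequenced in 5 NR TAC libraries and 4 NR SHAM libraries, which are 9 of the 16 libraries of the series. The remaining libraries, 4 Vehicle TAC and 3 Vehicle SHAM, received vehicle in place of NR and are used here only for contrast. Both groups compared had received NR, so the comparison shows the effect of the constriction on that background and not the effect of NR itself. Strain, age, NR dose and time after surgery are not given in the sources used here.

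The genes described are those with a mean of at least 50 normalized counts over both group columns, 12535 of the 20946 genes in the authors' deposited table of this comparison. A normalized count is a read count divided by a size factor for the depth of its library. The effect of TAC is log2((NR TAC + 1)/(NR SHAM + 1)), so 1 is a doubling and −1 a halving of the mean. Nfkbie lay just inside the limit, with means of 57.2 in NR TAC hearts and 42.9 in NR SHAM hearts, as did Rps19-ps3 (49.8 in NR TAC and 50.3 in NR SHAM hearts). Fst (60.1 in NR TAC and 39.9 in NR SHAM hearts) and Anxa9 (56.1 in NR TAC and 43.8 in NR SHAM hearts) lay just outside. Only group means are given, so no value per library and no SD stands beside them, and the spread between libraries enters through the authors' DESeq p-values. Nothing states that libraries came from separate animals, so these p-values may measure technical spread.

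Pressure overload makes heart muscle cells enlarge and return to a gene programme of the fetal ventricle, with skeletal actin, beta-myosin and the natriuretic peptides as its usual signs. Cardiac fibroblasts lay down collagen, and muscle cells turn away from fatty acids as fuel and lose channels that shape the action potential. Stretch and neurohormones also switch on immediate early genes, which need no new protein synthesis to be induced and many of which encode transcription factors.

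In the authors' deposited table, 115 of 20946 genes had a DESeq adjusted p below 0.05, which is 0.549% of the genes tested, 0.306% higher and 0.243% lower in NR TAC hearts; such genes are called changed below. Of the genes with a mean of at least 50, 108 were called (0.862%), 59 higher in NR TAC hearts (0.471%) and 49 lower (0.391%). The rises were the larger changes: their median effect was 0.90 with a highest value of 2.60, and the falls had a median of −0.72 and a lowest value of −1.27. Genes that fell were the more strongly expressed, with a median of the mean count of 733, against 409.7 for those that rose. GENCODE lists 105 of the 108 as protein-coding. The 7 other called genes had means under 50, among them Tbx15, a T-box transcription factor (means of 49.9 in NR TAC and 18.3 in NR SHAM hearts), Egr2 (1.93), Serpinb1c (2.10), Cldn23 (2.02) and Syndig1 (1.57).

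**Figure D1:**
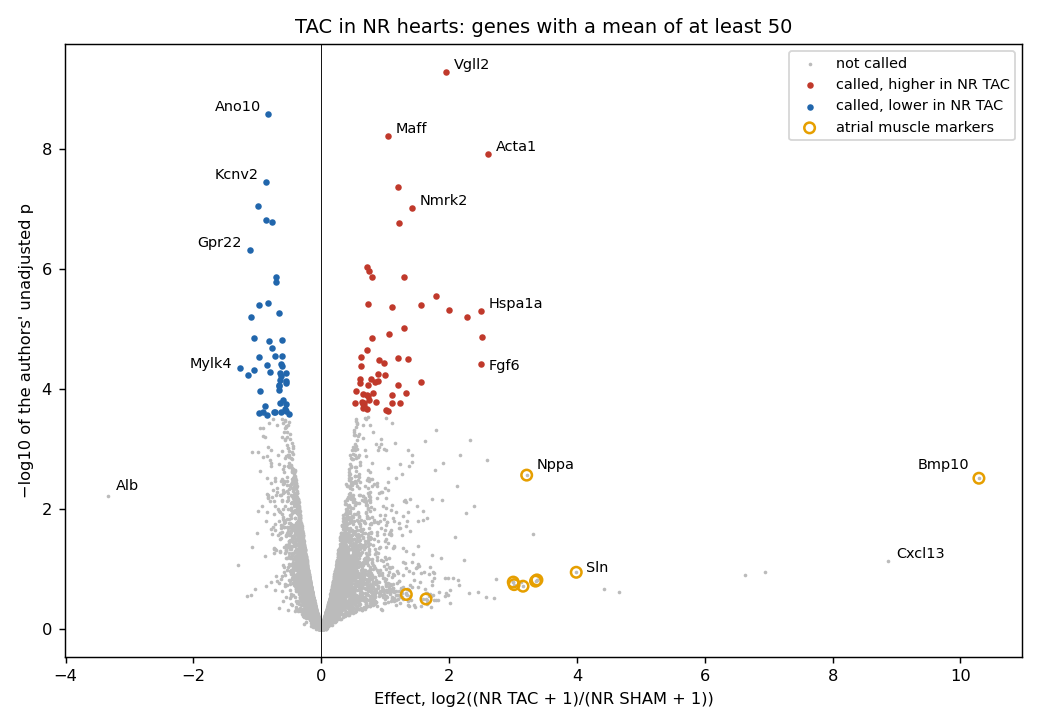
Effect of TAC in NR hearts (x axis, log2 scale) against −log10 of the authors' unadjusted p (y axis) for each gene with a mean of at least 50, with called genes in colour and the 10 atrial muscle markers ringed. Called genes lie between −1.27 and 2.60, while Bmp10, Cxcl13 and Sln lie farther right and were not called; genes listed at 0 in a group are left out.

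Acta1, the skeletal alpha-actin of the fetal and stressed heart, had the largest called rise. It averaged 64157 normalized counts in NR TAC hearts, against 10548 in NR SHAM hearts, an effect of 2.60 (adjusted p 6.16e-05 by DESeq in the authors' deposited table). The gene spans chromosome 8 from 123891769 to 123894751 on the minus strand of GRCm38. Its promoter is shown because it holds a CArG box, the binding motif of serum response factor, and was the only one to do so among 40 risen genes with a promoter in the RefSeq table. The 250 bases before its RefSeq start on GRCm38.p6, chr8:123894776-123895025, minus strand, read 5′ to 3′ as follows, with the motif in capitals.
Acta1: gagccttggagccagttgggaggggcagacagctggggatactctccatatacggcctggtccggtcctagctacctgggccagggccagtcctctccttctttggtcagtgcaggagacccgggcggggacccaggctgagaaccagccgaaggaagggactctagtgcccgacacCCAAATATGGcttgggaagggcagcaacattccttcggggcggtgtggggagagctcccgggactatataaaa
The motif begins 73 bases before the start. Over all 27025 genes of that table, 1.62% had a CArG box in a window of this length on either strand. A match is a description of letters and does not show that a factor binds there.

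Vgll2, a muscle cofactor of TEAD transcription factors, had the smallest p-value of all genes and averaged 129 in NR TAC hearts, against 32.6 in NR SHAM hearts (effect 1.96, adjusted p 1.06e-05 by DESeq in the authors' deposited table). Fgf6, a fibroblast growth factor known from skeletal muscle, averaged 174 in NR TAC and 30.0 in NR SHAM hearts (effect 2.50, adjusted p 0.0164 in the authors' deposited table). Of 9 fast skeletal muscle markers measured, 2 had a mean of at least 50 and none was called. Those were Mybpc2 (0.73) and Ckm (−0.08). Ankrd1, a titin-binding stretch sensor of heart muscle, averaged 118280.4 in NR TAC hearts and 48418 in NR SHAM hearts (effect 1.29). Synpo2l, an actin-binding protein of the Z-disc, averaged 15106 in NR TAC and 7636 in NR SHAM hearts (effect 0.98).

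**Figure D2:**
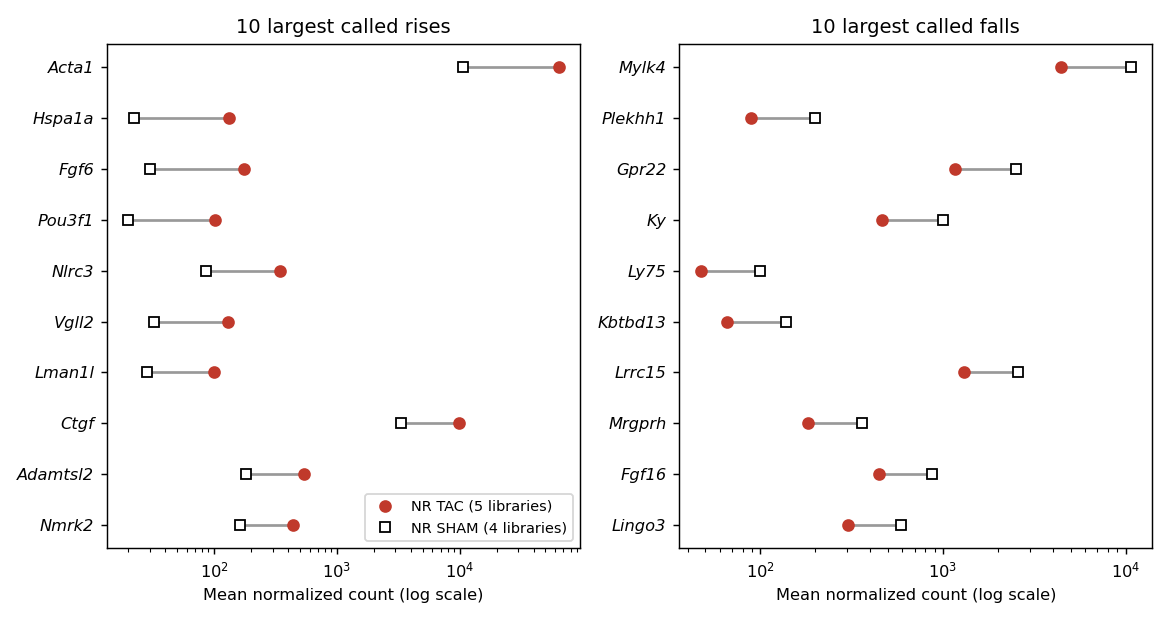
Group means (x axis, normalized counts, log scale) of the 10 largest called rises and 10 largest called falls that are reported, with filled circles for NR TAC and open squares for NR SHAM hearts. Acta1 (64157 in NR TAC and 10548 in NR SHAM hearts) and Mylk4 (4432 in NR TAC and 10704 in NR SHAM hearts) are the most strongly expressed of the genes plotted.

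Of 20 cardiac stress genes, all with a mean of at least 50, 3 rose (Acta1, Ankrd1 and Ctgf) and 19 had positive effects, with a median of 1.15 beside 0.00 for all genes with such a mean. Of all genes with such a mean, 0.471% were called higher and 6370 of 12535 had positive effects. Ctgf encodes connective tissue growth factor, a matricellular protein, and averaged 9879.7 in NR TAC hearts, against 3343 in NR SHAM hearts (effect 1.56, adjusted p 0.0226 in the authors' deposited table). The natriuretic peptide genes had large effects without passing the test. Nppa averaged 27333 in NR TAC and 2946 in NR SHAM hearts (effect 3.21, adjusted p 0.203 in the authors' deposited table). Nppb averaged 17280.3 in NR TAC and 4956 in NR SHAM hearts (effect 1.80, adjusted p 0.0711 in the authors' deposited table). Mme, which encodes neprilysin, a protease that degrades natriuretic peptides, fell by 0.64, with means of 505 in NR TAC and 786 in NR SHAM hearts. The myosin pair did not pass: Myh7, the beta-myosin of the fetal ventricle, had an effect of 0.56 and Myh6, the adult alpha-myosin, of −0.33 (adjusted p 0.935 and 0.465 in the authors' deposited table).

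The list with the most calls was that of immediate early genes. Of 27 listed, 6 rose (Egr1, Egr2, Junb, Klf4, Maff and Myc) and 0 fell, beside 0.306% of all genes tested that were called higher. Among the 24 with a mean of at least 50, 23 had positive effects and the median was 0.72. Maff, a small Maf transcription factor, averaged 388 in NR TAC hearts, against 188 in NR SHAM hearts (effect 1.04, adjusted p 4.13e-05 by DESeq in the authors' deposited table). Myc, which drives growth and ribosome synthesis, averaged 191 in NR TAC and 82.7 in NR SHAM hearts (effect 1.20, adjusted p 0.000146 in the authors' deposited table). Egr1, a zinc-finger factor induced by growth signals, averaged 1080.4 in NR TAC and 439 in NR SHAM hearts (effect 1.30). Junb, an AP-1 subunit, averaged 974 in NR TAC and 535 in NR SHAM hearts (effect 0.86), and Jdp2, a repressor that pairs with Jun proteins, also rose (effect 0.85). Fos (2.39) and Nr4a1 (1.88) also had positive effects and did not pass (adjusted p 0.358 and 0.32 in the authors' deposited table). Against Vehicle SHAM libraries, the same NR SHAM libraries had a median effect of −0.42 over this list in the authors' deposited table of those groups, and the part of that in the rises above was not tested.

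Tsc22d3 (0.66) and Sgk1 (0.67), both known as targets of glucocorticoids, rose to means of 4359 and 2014 in NR TAC hearts, against 2764 and 1266 in NR SHAM hearts. Errfi1, a feedback inhibitor of epidermal growth factor receptors, rose by 0.65. Ppp1r15a, which directs a phosphatase to the translation factor eIF2 alpha, rose by 0.60. Among the transcription regulators outside the immediate early list, Pou3f1, a POU-domain factor known from Schwann cells, averaged 101 in NR TAC hearts and 20.0 in NR SHAM hearts (effect 2.28). Arid5a, which binds and stabilises inflammatory mRNAs, averaged 735 in NR TAC and 318 in NR SHAM hearts (effect 1.20). Stc1, the secreted stanniocalcin 1, rose by 1.33, and Cnksr1, a scaffold of Ras signalling, by 1.19. Of 43 hypertrophic signalling genes none was called, and the median over the 41 with a mean of at least 50 was 0.00; Dusp6, a phosphatase of ERK kinases (0.44), and Trib1 (0.46) had the smallest p-values.

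Among heat shock genes, all with a mean of at least 50, 1 of 24 rose and 22 had positive effects (median 0.24). Of all genes with such a mean 0.471% were called higher. Hspa1a, an inducible HSP70 chaperone, averaged 131 in NR TAC hearts, against 22.3 in NR SHAM hearts (effect 2.51, adjusted p 0.0038 by DESeq in the authors' deposited table). Hspa1b, its near-identical neighbour, averaged 209 in NR TAC and 33.8 in NR SHAM hearts (effect 2.59) and missed the threshold, with an adjusted p of 0.143 in the authors' deposited table. Reads shared by these copies could be split between them, so the values of each are uncertain. Hspa1l, another HSP70 gene beside them and not on the list, rose by 1.11. No gene of the unfolded protein and integrated stress list was called, though 25 of 28 had positive effects (median 0.22). Its smallest p-values were of Sdf2l1 (0.75) and Creld2 (0.47), which act in the endoplasmic reticulum. In vehicle hearts 14 of those 28 genes had positive effects. Against Vehicle SHAM libraries, NR SHAM libraries had a median effect of −0.19 over that list and −0.11 over the heat shock list, and −1.42 for Hspa1a. The part of the sham groups in these values was not tested. Ppp1r15a, a gene of the integrated stress response that is not on that list, was called and rose by 0.60.

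The matrix lists had positive effects nearly throughout, with calls among matricellular genes and fibroblast regulators and none among the structural matrix genes. Of 27 matricellular, crosslinking and protease genes 2 rose, beside 0.306% of all genes tested, and the median over the 23 with a mean of at least 50 was 0.73. Adamtsl2, a secreted protein that binds a latent TGF-beta binding protein, averaged 542 in NR TAC hearts, against 183 in NR SHAM hearts (effect 1.56, adjusted p 0.0034 by DESeq in the authors' deposited table). P4ha1, the catalytic subunit of collagen prolyl hydroxylase, averaged 2449 in NR TAC and 1409.8 in NR SHAM hearts (effect 0.80). Meox1, a homeobox factor of activated fibroblasts, rose by 1.11 and was the call among 25 fibroblast regulators (median 0.30). Tgm2, a transglutaminase that crosslinks matrix proteins, rose by 0.53. All 29 structural matrix genes had positive effects (median 0.54) and none was called. Col1a1, the main fibrillar collagen chain, averaged 4213 in NR TAC and 2788 in NR SHAM hearts (effect 0.60, adjusted p 0.737 in the authors' deposited table), and the smallest p-values of that list were of Col8a1 (1.02) and Mfap5 (1.38). Postn, the periostin of activated fibroblasts, averaged 4316 in NR TAC and 1645 in NR SHAM hearts and did not pass (effect 1.39, adjusted p 0.548 in the authors' deposited table). Called genes outside these lists whose products act in the matrix went both ways. Tgm2 and Ctgf rose, as given above. Adamts7, a metalloprotease (−0.83), Frem2, a basement membrane protein (−0.84), and Egflam, a dystroglycan ligand (−0.66), fell.

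Of 14 fibroblast markers 13 had positive effects, with the smallest p-values for Mfap5 (1.38) and Medag (0.53). Dcn, Col1a1, Col3a1, Mfap5 and Lum stand on both this list and that of structural matrix genes, so the lists are not independent. The marker list's summed mean was 124523 in NR TAC hearts and 93300.3 in NR SHAM hearts, none stood at 0 in both groups, and their part in the matrix values was not tested. In whole tissue, more cells of a type and more RNA per cell cannot be told apart. Endothelial markers had 7 positive effects of 12 (median 0.08), smooth muscle and pericyte markers 6 of 10 (0.18) and cardiomyocyte markers 4 of 12 (−0.15). Cardiomyocyte markers summed to 2288532 in NR TAC hearts and 2510011 in NR SHAM hearts, and none of these lists had a called member. The smallest p-values were of Pecam1 (0.30) and Eng (0.26) among endothelial, Abcc9 (−0.48) and Kcnj8 (−0.24) among smooth muscle and pericyte, and Ryr2 (−0.46) and Myh6 (−0.33) among cardiomyocyte markers.

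Anxa2, annexin A2, averaged 2372 in NR TAC hearts, against 1566 in NR SHAM hearts (effect 0.60), and S100a10, its binding partner at the cell membrane, 1308 in NR TAC and 782 in NR SHAM hearts (effect 0.74). Emp1, an epithelial membrane protein, averaged 3124 in NR TAC and 1896 in NR SHAM hearts (effect 0.72). Rtn4, which shapes the endoplasmic reticulum, rose by 0.55, and Dynll1, a dynein light chain, by 0.62. The promoters of Anxa2 and Emp1 are shown because each holds TGANTCA, called the motif here. It is a loose form of the AP-1 motif in which N is any base. The usual AP-1 motif has C or G there, while the Emp1 match 25 bases before the start has T. The 250 bases before the RefSeq start on GRCm38.p6, plus strand, lie at chr9:69453433-69453682 for Anxa2 and chr6:135362681-135362930 for the first of 2 starts of Emp1, with the motif in capitals; the window of the other Emp1 start has no match.
Anxa2: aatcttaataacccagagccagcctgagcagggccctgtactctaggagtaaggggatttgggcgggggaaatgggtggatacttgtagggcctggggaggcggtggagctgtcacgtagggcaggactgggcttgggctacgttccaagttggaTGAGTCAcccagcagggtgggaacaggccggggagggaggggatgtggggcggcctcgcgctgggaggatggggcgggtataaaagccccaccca
Emp1: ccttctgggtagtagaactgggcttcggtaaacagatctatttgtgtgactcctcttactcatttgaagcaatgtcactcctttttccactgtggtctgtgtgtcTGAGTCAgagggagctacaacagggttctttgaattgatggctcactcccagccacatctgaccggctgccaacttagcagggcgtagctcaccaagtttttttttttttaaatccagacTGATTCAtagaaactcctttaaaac
The motif begins 95 bases before the Anxa2 start, and 145 and 25 bases before the Emp1 start. Among risen genes 4 of 40 had TGANTCA on either strand (10%; the others were Cnksr1 and Ctla2a), and among fallen genes 4 of 36 (11.1%). Of the 9395 matched genes that reached the minimum mean 5.44% had it, as did 7.82% of all promoters in the table. The share was no higher among risen than among fallen genes.

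Of the calls that reached the minimum mean of 50, Mylk4 had the largest fall. Mylk4, a kinase of the myosin light chain kinase family, averaged 4432 in NR TAC hearts, against 10704 in NR SHAM hearts (effect −1.27, adjusted p 0.0174 by DESeq in the authors' deposited table). Ky, a protease-like protein of the muscle Z-disc, averaged 465 in NR TAC and 1001 in NR SHAM hearts (effect −1.11). The kelch proteins Kbtbd13, a nemaline myopathy gene, and Klhl33 fell by 1.05 and 0.72. Of 34 sarcomere and Z-disc genes 2 fell (Mylk4 and Ky) and 1 rose (Synpo2l); 17 effects were positive and 17 negative. Of 24 muscle ubiquitin ligase and kelch genes 2 fell and 16 of 24 had negative effects (median −0.12). Slc26a10, a member of an anion transporter family, Whrn, a scaffold protein, and Ano10, an anoctamin of the membrane, fell by 0.80, 0.61 and 0.83; Ano10 averaged 1839 in NR TAC and 3264 in NR SHAM hearts and had the second smallest p-value of the comparison.

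The few called genes of the ion channel and calcium handling lists all fell. Of all genes with a mean of at least 50, 0.391% were called lower and 0.471% higher. Kcnv2, a silent subunit that modifies potassium channels, averaged 439 in NR TAC hearts, against 796 in NR SHAM hearts (effect −0.86, adjusted p 0.000145 by DESeq in the authors' deposited table). Kcnj2, the inward rectifier that sets the resting potential, averaged 1898 in NR TAC and 2992 in NR SHAM hearts (effect −0.66). These were the 2 calls among 22 potassium channel genes, 18 of which had negative effects (median −0.25). Scn4a, a sodium channel known from skeletal muscle, fell by 0.74 and was the call among 21 sodium channel and conduction genes (median −0.31). Slc8a1, the sodium-calcium exchanger, averaged 6113 in NR TAC and 8927 in NR SHAM hearts (effect −0.55) and was the call among 27 calcium handling genes, of which 21 of 25 had negative effects. Atp2a2, the calcium pump of the sarcoplasmic reticulum, did not pass (effect −0.40, adjusted p 0.221 in the authors' deposited table).

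Among 30 cardiac receptor genes measured, 2 fell. Gpr22, an orphan receptor strongly expressed in heart, averaged 1159 in NR TAC hearts, against 2517 in NR SHAM hearts (effect −1.12, adjusted p 0.000829 by DESeq in the authors' deposited table). Adra1b, the alpha-1B adrenergic receptor, averaged 939.9 in NR TAC and 1603 in NR SHAM hearts (effect −0.77). The MAS-related receptor Mrgprh, outside the list, fell by 0.98. Among called genes on no list, Ephb1, an ephrin receptor, fell by 0.70, Plxnb1, a semaphorin receptor, by 0.62, Celsr2, a cadherin, by 0.63, and Cadm4, an adhesion molecule, by 0.64. Growth factors moved both ways. Of 47 in the table, Fgf6 rose and Fgf16, a heart fibroblast growth factor, fell to 445 in NR TAC hearts, against 873 in NR SHAM hearts (effect −0.97), and the list had a median of 0.22.

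The fallen genes of fuel metabolism included carriers of substrates and a regulator of amino acid oxidation. Slc27a1, a fatty acid transporter, averaged 4323 in NR TAC hearts, against 6361 in NR SHAM hearts (effect −0.56, adjusted p 0.0222 by DESeq in the authors' deposited table). Slc25a42, which brings coenzyme A into mitochondria, averaged 3046 in NR TAC and 4453 in NR SHAM hearts (effect −0.55). Ppm1k, the phosphatase that activates branched-chain ketoacid oxidation, averaged 4443 in NR TAC and 6303 in NR SHAM hearts (effect −0.50). Slc16a7, a monocarboxylate carrier (−0.66), Gpt, alanine transaminase (−0.65), and Nt5c1a, which makes adenosine from AMP (−0.63), fell too. Entpd5, a nucleotidase, was among the most strongly expressed fallen genes, with 7347 in NR TAC and 12573 in NR SHAM hearts (effect −0.78). Slc1a4, a neutral amino acid transporter, rose by 0.99.

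The metabolic lists had negative medians, with positive members in all but that of fatty acid oxidation. All 35 of 35 fatty acid oxidation genes with a mean of at least 50 were negative (median −0.28), with 1 call (Slc27a1) and 17 at an unadjusted p below 0.05 in the authors' deposited table. Of all genes with such a mean, 6165 of 12535 had negative effects. At that unadjusted threshold, 627 of the 12535 had negative effects, and 9.69% passed in either direction. The tricarboxylic acid cycle list had 31 of 32 negative (median −0.21) and the nuclear respiratory chain list 39 of 42 (−0.17), with no call in either. The smallest p-values of the cycle list were of Sdha (−0.36), the flavoprotein of complex II, and of Pdk4, a kinase that shuts off pyruvate dehydrogenase. Pdk4 was the positive member of that list, with 21096 in NR TAC and 12661 in NR SHAM hearts (effect 0.74, unadjusted p 0.00957 in the authors' deposited table), larger in size than any negative effect of the list. Those of the respiratory chain list were of Ndufs1 (−0.30), of complex I, and Uqcrfs1 (−0.30), of complex III. Branched-chain amino acid and ketone genes had 24 of 25 negative (−0.20), with the call of Ppm1k. Mitochondrially encoded genes had 11 of 13 negative (−0.17), and mt-Co1, a cytochrome oxidase subunit (−0.22), had one of the smallest p-values; the other, mt-Atp8, an ATP synthase subunit, averaged 7834 in NR TAC and 3913 in NR SHAM hearts. Glucose and glycolysis genes (27 of 34 negative, −0.13) and the PGC-1, PPAR and ERR regulators (15 of 22, −0.11) had no call; among the regulators Perm1 (−0.31) and Rxrg (−0.31) had the smallest p-values. Pfkp, a phosphofructokinase, had an effect of 0.54 and Hk2, a hexokinase, of −0.44. Cd36 (−0.20), the fatty acid receptor, and Ppargc1a (0.11), the coactivator PGC-1 alpha, did not pass.

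Nmrk2, the muscle kinase that phosphorylates nicotinamide riboside on its way to NAD+, averaged 440.2 in NR TAC hearts, against 163 in NR SHAM hearts (effect 1.43, adjusted p 0.000253 by DESeq in the authors' deposited table). It was the call among 33 NAD metabolism genes in the table, and 19 of 27 with a mean of at least 50 had negative effects (median −0.09). Nampt, which recycles nicotinamide, averaged 11164 in NR TAC and 13549 in NR SHAM hearts (effect −0.28, adjusted p 0.885 in the authors' deposited table). Of 50 short-chain dehydrogenases, the family named in the series title, none was called, and 25 of 43 had negative effects (median −0.05). Hsdl2 (−0.36) and Cbr2 (0.57) had the smallest p-values, and Dhrs7c, a dehydrogenase of the sarcoplasmic reticulum, averaged 3220.2 in NR TAC and 4161 in NR SHAM hearts (effect −0.37, adjusted p 0.317 in the authors' deposited table).

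Genes of innate immunity rose singly, without calls in the inflammatory lists. Nlrc3, which restrains innate immune signalling, averaged 346 in NR TAC hearts, against 85.9 in NR SHAM hearts (effect 2.00, adjusted p 0.0038 by DESeq in the authors' deposited table). Tlr4, the receptor for bacterial lipopolysaccharide, averaged 1025 in NR TAC and 614 in NR SHAM hearts (effect 0.74), and Cmklr1, the chemerin receptor, 762 in NR TAC and 458 in NR SHAM hearts (effect 0.73). Otulin, which trims linear ubiquitin chains, rose by 0.63 and Masp1, a protease of the lectin complement pathway, by 0.72; Ly75, an endocytic receptor of dendritic cells, fell by 1.06. Macrophage markers had 18 of 18 positive effects (median 0.58) and a summed mean of 16943 in NR TAC and 10289 in NR SHAM hearts. Their part in the immune calls was not tested. Pf4 (0.55) and C1qc (0.49) had the smallest p-values of the marker list. Chemokines and cytokines (14 of 17 positive, 0.50) and interferon response genes (26 of 31, 0.17) had no call. In vehicle hearts 16 of those 31 interferon response genes had positive effects (median 0.01). NR SHAM libraries had a median of −0.26 over the interferon list against Vehicle SHAM libraries, and the part of that was not tested. Ifi204, an interferon-inducible gene outside the interferon response list, was called and rose by 0.67. The chemokines with the smallest p-values were Ccl9 (1.36) and Ccl6 (1.22), and the chemokine median was 0.31 at a minimum mean of 200. In the interferon list the smallest p-values belonged to the GTPases Igtp (−0.37) and Iigp1 (−0.30), both negative, and 0 positive and 2 negative effects had an unadjusted p below 0.05 in the authors' deposited table. No call was made among lymphocyte markers, of which 12 of 14 had a mean under 50; the others were Ighm (0.64) and Blk (0.04). Circadian clock genes (9 of 19 positive, −0.01) had none either, Per1 (0.34) and Per2 (0.46) having the smallest p-values. Cell cycle genes had 9 of 14 positive effects and no call, with a median of 0.18 that was 0.03 at a minimum mean of 200, and Mcm6 (1.05) and Cenpf (−0.99) had the smallest p-values. Blood markers had 7 of 7 positive effects (median 0.74), with no call, Bpgm (0.20) having one of the smallest p-values.

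Genes on no list made up the rest of the called set. Among rises, Lman1l, a lectin related to a cargo receptor of the secretory pathway, averaged 101 in NR TAC hearts, against 28.4 in NR SHAM hearts (effect 1.79), and Ctla2a, a cysteine protease inhibitor, averaged 229.5 in NR TAC and 97.6 in NR SHAM hearts (effect 1.23). Sypl2, also called mitsugumin 29, a membrane protein of the muscle triad, rose by 1.36, and Krt80, a keratin, by 1.22. Ccdc136, Ccdc68, B3gnt8, Shisa3, Atp8a2, Trim47, Slc45a3, Calhm2, Lrp11, Cdr2 and Cdv3 rose by between 0.61 and 1.06. Among falls, Plekhh1 averaged 88.6 in NR TAC hearts, against 198 in NR SHAM hearts (effect −1.15), and Lrrc15, a leucine-rich repeat protein of the membrane, 1301 in NR TAC and 2592 in NR SHAM hearts (effect −0.99). Lingo3 fell by 0.97, Impa2, an inositol monophosphatase, by 0.86, and Slc22a3, an organic cation transporter, by 0.61. Gal3st3, Abca12, Cryba4, Tnfaip8, Cep128, Prrg1, Ralgapa2 and Fbxo10 had effects between −0.91 and −0.55.

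**Figure D3:**
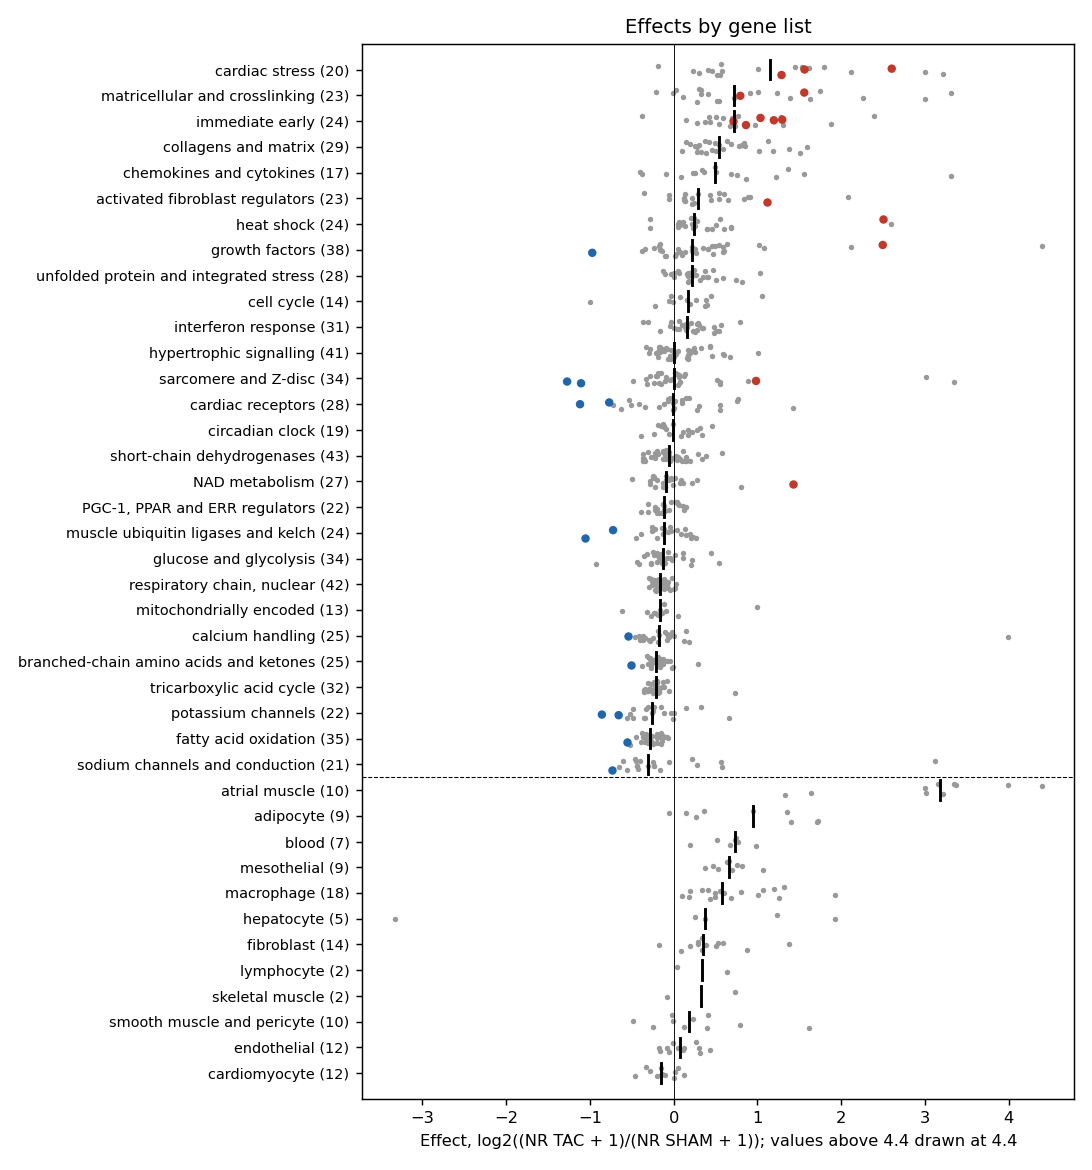
Effect of TAC in NR hearts (x axis, log2 scale) for the members of each gene list with a mean of at least 50, whose number stands in brackets, pathways above the dashed line and cell type markers below it. Red and blue points were called higher and lower in NR TAC hearts, grey points were not called, and black bars are medians; atrial muscle markers have the highest median (3.18) with no call, and Ucp1, listed at 0 in NR SHAM hearts, is left out.

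The largest effects of the comparison were not called. Of 41 genes that reached that mean with an effect of 2 or more, 5 were called, and the median unadjusted p of the others was 0.148 in the authors' deposited table. Atrial muscle genes formed 1 such group: all 10 markers measured had positive effects (median 3.18), with a summed mean of 84136 in NR TAC hearts and 9147 in NR SHAM hearts. Bmp10, a growth factor made in the atria, averaged 6511 in NR TAC hearts, against 4.21 in NR SHAM hearts (adjusted p 0.214 in the authors' deposited table). Myl4, an atrial myosin light chain, averaged 22190.5 in NR TAC and 2172 in NR SHAM hearts, and Sln, the sarcolipin that inhibits the calcium pump in atria, 4352 in NR TAC and 273 in NR SHAM hearts (adjusted p 0.935 and 0.892 in the authors' deposited table). Nppa stands on both the atrial and the stress list, and the part of atrial tissue in its value was not tested. Nppb, Acta1 and Ankrd1 are not on the atrial list, but the part of atrial tissue in their values was not tested either.

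Inflammatory and adipose genes formed further groups of large effects without a call, named after their values were seen. Cxcl13, a B-cell chemokine, averaged 2664 in NR TAC hearts, against 4.68 in NR SHAM hearts (adjusted p 0.809 in the authors' deposited table). Saa3, an acute-phase serum amyloid, averaged 254 in NR TAC and 1.08 in NR SHAM hearts, and Marco, a scavenger receptor of macrophages, 202 in NR TAC and 1.05 in NR SHAM hearts (adjusted p 0.889 and 0.898 in the authors' deposited table). Ucp1, the uncoupling protein of brown fat, averaged 146 in NR TAC hearts and is listed at 0 in NR SHAM hearts. The other adipocyte markers with a mean of at least 50 were positive in 8 of 9 cases (median 0.94, and 0.32 at a minimum mean of 200), Thrsp (0.36), a lipogenic regulator, and Cidea (0.27) having the smallest p-values beside Ucp1. Mesothelial markers had 9 of 9 positive effects (median 0.67), with the smallest p-values for Krt18 (1.07) and Wt1 (0.47). Most hepatocyte markers were low, with 16 of 21 under a mean of 50; Alb averaged 10.1 in NR TAC hearts and 111 in NR SHAM hearts, and Ahsg 963 in NR TAC and 252 in NR SHAM hearts. Which libraries hold these transcripts cannot be read from group means.

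Remodelling genes outside these groups also had large effects without a call. Cilp, a matrix protein of activated fibroblasts, averaged 819 in NR TAC hearts, against 162 in NR SHAM hearts (effect 2.33, adjusted p 0.0903 in the authors' deposited table). Thbs4, a thrombospondin, averaged 859 in NR TAC and 278 in NR SHAM hearts (effect 1.63, adjusted p 0.0932 in the authors' deposited table). Gdf15, a stress-induced cytokine, averaged 185 in NR TAC and 41.7 in NR SHAM hearts, and Ltbp2, a latent TGF-beta binding protein, 709.7 in NR TAC and 147 in NR SHAM hearts. None of the 4 passed, and all were named after their values were seen.

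The TAC effect in NR hearts was then set against that in vehicle hearts, which shares no library with it. The vehicle table called 8 of 12823 genes with a mean of at least 50 (0.0624%), from 4 Vehicle TAC and 3 Vehicle SHAM libraries. Each of the 108 NR calls kept its direction in the vehicle table, where 3 of them were called. The share of all genes that keep their direction was not counted. Among the 108, the effects were larger in size in NR than in vehicle hearts for 61 genes, 34 of 59 rises and 27 of 49 falls. The gene-by-gene difference was tested with an approximate z from the 2 effects and their errors, over 12353 genes with a mean of at least 50 in both tables. None passed at a Benjamini-Hochberg adjusted p below 0.05 (0%), and 71 had an unadjusted p below 0.05 (0.575%), so no gene is shown to respond differently. That share lies well under the 5% that exact errors would give with no difference at all, so the approximate test is conservative. The result does not show that the responses were alike.

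Among the called genes, 4 had an unadjusted p of the difference below 0.05, and all 4 had the larger effect in NR hearts. Genes chosen for passing in NR hearts are favoured to have the larger effect there, so neither this nor the count of 61 carries a test. All 4 lay near 0 in vehicle hearts, where the approximate error can be too small. Egr1 had an effect of 1.30 in NR hearts and 0.08 in vehicle hearts, a difference of 1.22 ± 0.42 (SE; adjusted p 0.9999). Its means in the vehicle table were 1252 in Vehicle TAC and 1185 in Vehicle SHAM hearts, against 1080.4 in NR TAC and 439 in NR SHAM hearts, whose table was normalized separately. The others were Klf4 (0.72 in NR and 0.11 in vehicle hearts), Ifi204 (0.67 in NR and 0.02 in vehicle hearts) and Peg10 (1.11 in NR and 0.09 in vehicle hearts). Hspa1a had 2.51 in NR and 0.83 in vehicle hearts, a difference of 1.68 ± 1.21 (SE). On the other side, Vgll2 had 1.96 in NR hearts and 4.02 in vehicle hearts, a difference of −2.07 ± 1.59 (SE), and Acta1 2.60 in NR and 3.30 in vehicle hearts (−0.70 ± 0.88, SE). Among the falls, Gpr22 had −1.12 in NR and −1.04 in vehicle hearts, Kcnj2 −0.66 in NR and −0.67 in vehicle hearts, and Adamts7 −0.83 in NR and −0.83 in vehicle hearts. Over all genes tested, the smallest p-values of the difference belonged to Ifi204, Bmp10, Timd4, Egr1 and Ifi211.

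**Figure D4:**
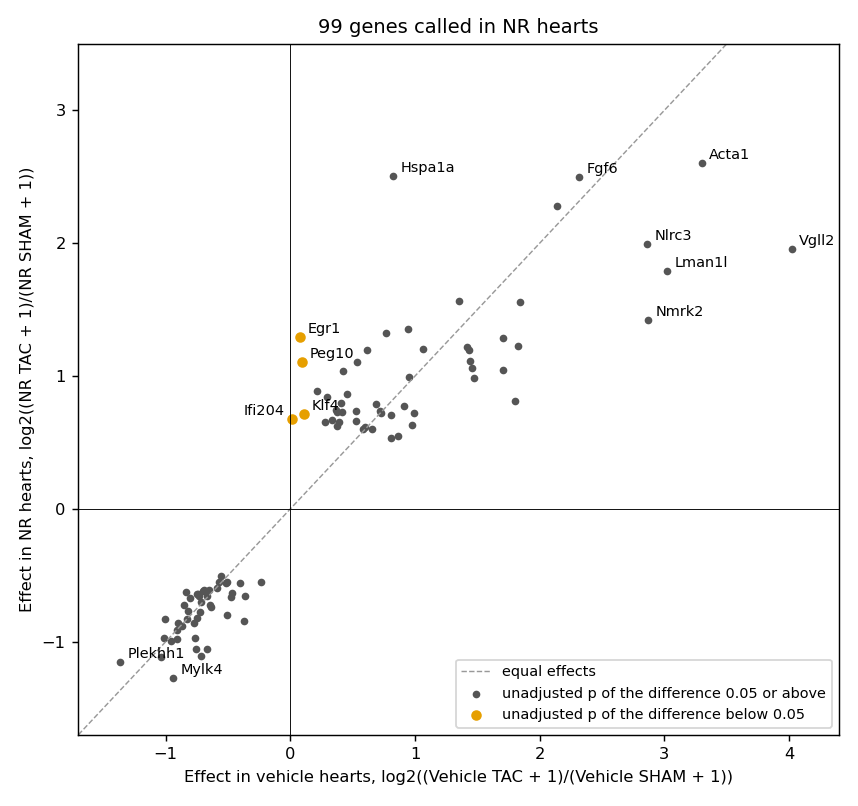
Effect of TAC in NR hearts (y axis, log2 scale) against that in vehicle hearts (x axis, log2 scale) for the 99 reported genes called in NR hearts with a mean of at least 50; the dashed line marks equal effects. Egr1, Klf4, Ifi204 and Peg10, in orange, lie near 0 in vehicle hearts, where the approximate error can be too small. Vgll2 (1.96 in NR and 4.02 in vehicle hearts) lies farthest to the right.

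The uncalled large effects differed from the called ones in how they stood in vehicle hearts. Of the 27 called genes with an effect of 1 or more in NR hearts, 24 had an effect of at least 0.5 in vehicle hearts. Of the 235 uncalled genes past the same size, 148 did, 86 lay below 0.5, 28 of these being negative, and 1 was not listed in the vehicle table. The list with the highest median differed so: the atrial markers had 3.18 in NR hearts and 0.23 in vehicle hearts. Sln had 3.99 in NR and 0.31 in vehicle hearts, Myl4 3.35 in NR and 0.39 in vehicle hearts, and Bmp10 averaged 66.0 in Vehicle TAC and 1033 in Vehicle SHAM hearts. Adipocyte markers had a median of 0.94 (0.32 at a minimum mean of 200) in NR hearts and −0.78 in vehicle hearts. Nppa, by contrast, had 3.21 in NR hearts and 3.40 in vehicle hearts. Cilp had 2.33 in NR and 3.20 in vehicle hearts, and Gdf15 2.12 in NR and 3.84 in vehicle hearts. Against Vehicle SHAM libraries, NR SHAM libraries had a median effect of −1.71 over the adipocyte and −0.91 over the atrial markers. Against Vehicle TAC libraries, NR TAC libraries had medians of 0.19 and 1.91 over the same lists. The part of the sham groups in these contrasts was not tested. The difference for Bmp10 had an adjusted p of 0.9999 by the approximate z. These counts were read after the data had been seen and carry no test.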

How the data were processed

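Total RNA of mouse hearts was sequenced on a BGISEQ-500, per the labels' protocols. TopHat, HTSeq, DESeq and GRCm38 are named in the submitters' processing notes, without versions. The deposited tables each compare a pair of groups. Per the file headers and values, a signal column holds the mean over a group of counts scaled by size factors of that pair. The authors' fold divides these means after adding 1, and their log2 value is its logarithm; the effect was recomputed and equals it. The authors' p-value comes from DESeq and was adjusted over the whole table. Library depths are unknown, so counting intervals are not given.

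The difference between NR and vehicle hearts was an approximate z, each error being the effect over the normal quantile of its p-value (scipy 1.17.1). Members and the 40 gene lists were chosen with earlier results of these data known, and no list was tested as a set. Named genes were the 10 largest rises and falls that passed with the required mean, leaving out predicted gene models; further called genes; called list members or else the 2 with the smallest p; the 5 smallest p-values of the difference; and a short set of stress, matrix and metabolic genes. Fos, Nr4a1, Hspa1b, the genes with large effects that were not called and the 3 promoters shown were picked after their values were seen. 4 genes under these rules, 3 of them called, are not reported here. Positions are from GENCODE M21 and promoters from RefSeq, both on GRCm38. Strand of counting is not stated, and 45 named called genes overlap a gene on the other strand, among them Acta1, Gpr22, Junb, Mylk4, Nmrk2 and Slc8a1, so reads of the pair cannot be told apart.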

Additional observations from a re-analysis of the deposited data

How the results depend on the processing

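No paired analysis was possible because the tables hold group means only; for the same reason no library could be left out. Of 115 calls (64 up, 51 down), an adjusted p below 0.01 left 37 (22 up, 15 down) and a minimum absolute effect of 1 left 40 (32 up, 8 down). The other thresholds and minimum means kept each count within 1.5 times. The count of genes whose TAC effect differed between NR and vehicle hearts was 0 in each form tried: the approximate z, the difference of the 2 NR effects (94 genes at an unadjusted p below 0.05) and a minimum mean of 10 (106 genes). Pseudocounts of 10 and 0.1 and centring on the median of all genes turned the direction of no named gene, though they moved Bmp10 and other genes near 0 in NR SHAM hearts. Median effects changed sign in 2 lists: hypertrophic signalling (−0.02 at a minimum mean of 200) and hepatocyte markers (−1.29 at a minimum mean of 10, 1.58 at 200). At a minimum mean of 200 the medians of adipocyte markers (0.32), chemokines (0.31) and cell cycle genes (0.03) were more than 1.5 times lower. Group means hide which library carries a value, which limits every large effect that was not called.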
